A study of Mus musculus with 2 samples.

Results

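Peaks of trimethylated lysine 36 on histone H3 (H3K36me3) that lay just past the annotated ends of protein-coding genes were described in mouse macrophages. The members were selected on their measured position and length: from the authors' list of replicated peaks, those shorter than 6 kb were kept whose midpoint lay outside every coding gene body and at most 5 kb downstream of the annotated end of a coding gene. Of 55009 replicated peaks shorter than 6 kb, 1420 (2.58%) met this rule, against 53200 with the midpoint inside a coding gene body and 389 elsewhere. Each member was assigned to the gene with the nearest end, called its upstream gene here. The 1420 members belonged to 1208 of 21951 coding genes, and 1028 of these genes had 1 member, 151 had 2, 26 had 3 and 3 had 4.

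H3K36me3 is written mainly by the methyltransferase Setd2, which rides on the tail of elongating RNA polymerase II, so the mark builds up along transcribed gene bodies towards their ends. At the end of a gene the nascent RNA is cut downstream of a polyadenylation signal, commonly the hexamer AATAAA in DNA letters, and poly(A) polymerase adds the tail. The polymerase carries on past the cut before it is released, while the exonuclease Xrn2 degrades the RNA still attached to it.

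The mark was mapped by chromatin immunoprecipitation and sequencing in primary macrophages of the C57BL/6J strain, grown from bone marrow and left without stimulation. The series holds a single group with biological replicates 1 and 2, each begun from 10 ng of DNA with fragments of 350 to 480 bp. No genotype change or agent was labelled, and sex and age are given as not collected. Per the labels the replicates are distinct biosamples that share 1 donor record, so their spread may be technical; with 1 group, no test between groups was possible and every value below is a description.

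The 4 deposited lists differed in size: replicate 1 had 32098 peaks over 28.5 Mb, replicate 2 had 58505 over 79.4 Mb, the pooled list 61439 over 90.2 Mb and the replicated list 56117 over 85.9 Mb. Read depth is unknown, so a stretch without a peak in a list was not detected there and was not shown to lack the mark. The labelled cell type could be checked against marker genes with at least 20% of the body under peaks: 6 of 14 macrophage markers reached this in replicate 1 and 11 in replicate 2. None of 8 T cell, 6 B cell, 7 neutrophil, 6 fibroblast and 5 erythroid markers reached it in either replicate. Over all coding genes the upper quartile of body coverage lay below this limit, at 2.38% in replicate 1 and 17.3% in replicate 2.

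The sequences at the midpoints of the strongest members show what kind of DNA carried the mark past these genes. The 6 windows below, each 150 bases centred on the midpoint, belong to the members of highest enrichment whose window touches no annotated exon. They are written 5′ to 3′ on the strand of the upstream gene, from the RefSeq GRCm38.p6 genome (the same assembly as mm10), and lie at chr17:8327788-8327937 past Sft2d1 (plus strand), chr8:117635523-117635672 past Plcg2 (plus), chr9:66139738-66139887 past Ciao2a (plus), chr7:81781578-81781727 past 3110040N11Rik (minus), chr5:88784054-88784203 past Dck (plus) and chr16:23964679-23964828 past Bcl6 (minus). None of the 6 holds AATAAA on either strand, and their GC content ran from 42.7% to 58.0%.
Sft2d1: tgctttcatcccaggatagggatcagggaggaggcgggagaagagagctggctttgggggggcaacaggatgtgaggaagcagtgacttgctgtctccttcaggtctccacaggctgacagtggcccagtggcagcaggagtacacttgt
Plcg2: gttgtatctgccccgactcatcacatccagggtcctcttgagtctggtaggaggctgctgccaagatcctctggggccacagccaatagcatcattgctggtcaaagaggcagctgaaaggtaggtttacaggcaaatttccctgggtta
Ciao2a: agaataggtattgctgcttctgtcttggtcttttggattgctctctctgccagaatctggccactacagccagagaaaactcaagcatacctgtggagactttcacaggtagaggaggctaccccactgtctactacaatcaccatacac
3110040N11Rik: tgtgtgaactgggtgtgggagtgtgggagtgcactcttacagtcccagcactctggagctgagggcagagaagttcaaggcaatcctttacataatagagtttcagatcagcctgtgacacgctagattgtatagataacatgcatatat
Dck: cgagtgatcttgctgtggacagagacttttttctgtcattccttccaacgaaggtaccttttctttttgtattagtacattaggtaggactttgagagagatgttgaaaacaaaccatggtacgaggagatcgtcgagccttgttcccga
Bcl6: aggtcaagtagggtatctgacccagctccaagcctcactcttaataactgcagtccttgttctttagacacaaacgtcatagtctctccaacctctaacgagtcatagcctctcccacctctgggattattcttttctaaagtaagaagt

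Another 4 windows are shown because they do hold the hexamer on the gene strand, given in capitals; they were chosen after the sequences were seen, as the next members by enrichment with the hexamer and no annotated exon in the window. They lie at chr1:173699168-173699317 past Ifi208 (plus strand), chr4:154918204-154918353 past Tnfrsf14 (minus), chr17:74424945-74425094 past Nlrc4 (minus) and chr8:25154270-25154419 past Tacc1 (minus).
Ifi208: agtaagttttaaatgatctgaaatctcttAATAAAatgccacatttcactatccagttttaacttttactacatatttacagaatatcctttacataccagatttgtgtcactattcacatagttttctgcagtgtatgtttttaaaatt
Tnfrsf14: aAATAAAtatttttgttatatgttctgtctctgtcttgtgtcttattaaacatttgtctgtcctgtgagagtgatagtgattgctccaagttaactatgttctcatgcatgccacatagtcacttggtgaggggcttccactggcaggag
Nlrc4: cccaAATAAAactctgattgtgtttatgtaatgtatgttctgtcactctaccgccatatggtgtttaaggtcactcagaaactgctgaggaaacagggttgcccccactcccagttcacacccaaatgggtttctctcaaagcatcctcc
Tacc1: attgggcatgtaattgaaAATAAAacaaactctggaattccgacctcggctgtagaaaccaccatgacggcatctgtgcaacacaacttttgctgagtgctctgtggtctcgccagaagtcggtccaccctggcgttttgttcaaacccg

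Across 300 bases around each midpoint, AATAAA stood on the strand of the upstream gene in 236 of the 1420 members (16.6%) and on the other strand in 250 (17.6%). In peaks inside gene bodies of 1 strand (52063 peaks), it stood on the gene strand in 14.2% and on the other strand in 21.6%. Counted on either strand (AATAAA or its complement TTTATT), it was found in 30.1% of members and in 32.1% of all 55009 peaks shorter than 6 kb. By distance, the gene-strand share was 18.6% within 1 kb of the gene end, 11.5% from 1 to 2 kb, 13.3% from 2 to 3 kb, 23.6% from 3 to 4 kb (55 members) and 3.45% from 4 to 5 kb (29 members), with no steady order. The median GC content of members was 45.2%, against 44.1% in gene-body peaks, and the median share of bases marked as repeats was 17.9% against 17.7%. A match describes the letters only, and windows without a match say nothing about polyadenylation there.

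Most members lay close to the gene end. The midpoint was a median of 627.5 bp past it, with quartiles of 285 and 1352 bp and a range from 1 to 4967 bp. Of the 1420 members, 929 (65.4%, exact Clopper-Pearson 95% interval 62.9% to 67.9%, counting error only) had the midpoint within 1 kb, 279 from 1 to 2 kb, 128 from 2 to 3 kb, 55 from 3 to 4 kb and 29 from 4 to 5 kb. The far edge of the peak was a median of 1219 bp past the end and at most 7062 bp. Enrichment is the authors' own ratio of signal over the background of their caller, and its median showed no such fall. It was 2.97 within 1 kb, 2.89 from 1 to 2 kb, 2.97 in both of the next steps and 2.89 from 4 to 5 kb. Enrichment is known for called peaks only, so these medians do not show how the signal itself changed with distance. Across the 1420 members, which share libraries and neighbouring genes, Spearman's correlation was −0.08 between distance and enrichment and 0.53 between length and enrichment.

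**Figure D1:**
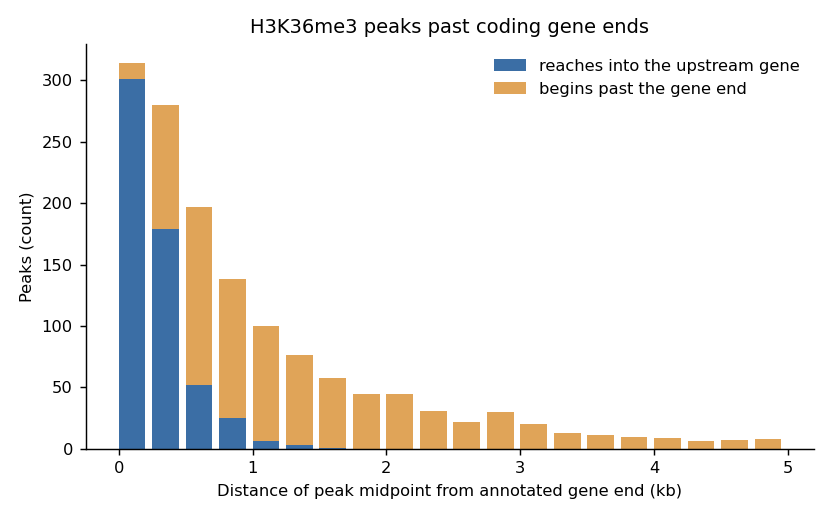
Number of members (vertical axis) by distance of the peak midpoint from the annotated gene end in kb (horizontal axis, steps of 250 bp); blue bars are peaks that reach into the upstream gene and orange bars peaks that begin past its end. The first step holds 301 reaching and 13 separate peaks, and no reaching peak lies past the step that ends at 1750 bp.

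The members were somewhat shorter and weaker than peaks inside genes. Their median length was 855 bp (235 to 5689 bp), against 1048 bp for peaks with the midpoint in a coding gene body, their median enrichment 2.97 (1.66 to 5.79) against 3.13, and their median −log10 q 5.83 against 6.73. Together they covered 1516 kb.

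The members fell into 2 kinds by where they began. In 567 (39.9%) the peak began inside the upstream gene and ran over its end, with a median of 28.6% of the peak inside a coding gene. The other 853 began past the end, at a median of 714 bp (1 to 4662 bp). Peaks that ran over the end were longer (median 1156 bp against 705 bp) and of slightly higher enrichment (3.07 against 2.89). Of the 853 separate peaks, 345 (40.4%) stood behind a gene whose annotated end was itself under another replicated peak. The end was under a replicated peak in 13.6% of all coding genes. It was so in 30.6% of the other coding genes with a replicated peak and no member. For the separate peaks the gap back to the previous replicated peak had a median of 541 bp and was under 1 kb for 555 (65.1%). Peaks that ran over the end were alike in this, with a median gap of 464 bp and 66.1% under 1 kb. Most members of both kinds thus followed close on another peak. The same gap is not given here for peaks inside genes, so this is not read as a trait of the members.

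Neither replicate alone held all members. At least 50% of the peak lay under peaks of replicate 1 in 222 members (15.6%), where 21.8% of all replicated peaks shorter than 6 kb did so. In replicate 2 it was 847 members (59.6%), where 66.7% of all such peaks did. Counting any overlap, 315 members (22.2%) met a peak in both replicates, 61 in replicate 1 only, 584 in replicate 2 only and 460 (32.4%, interval 30.0% to 34.9%) in neither. Of all replicated peaks shorter than 6 kb, 34.4% met a peak in both and 24.2% in neither. The members' shares in the single replicates lay below those of the replicated list at large; the members were also shorter and of lower enrichment, and the part of these in it was not tested.

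The replicates' shares also differed between the 2 kinds of member. Of the peaks that ran over the gene end, 120 of 567 (21.2%) had at least 50% of their length under replicate 1 peaks and 416 (73.4%) under replicate 2 peaks. Of the separate peaks, 102 of 853 (12.0%) did so in replicate 1 and 431 (50.5%) in replicate 2. By distance, the share in replicate 1 was 16.7% within 1 kb, 15.1% from 1 to 2 kb, 12.5% from 2 to 3 kb, 10.9% from 3 to 4 kb and 10.3% from 4 to 5 kb. In replicate 2 the same steps gave 63.2%, 51.3%, 57.8%, 56.4% and 41.4%, with only 29 members in the last step.

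The strongest member lay at the end of Tbcb, a cofactor in tubulin folding, at chr7:30222981-30225277. It was 2297 bp long with an enrichment of 5.79, began 1146 bp inside the gene and had its midpoint 2 bp past the end. Replicate 1 peaks covered 50.9% of it (enrichment 5.56) and replicate 2 peaks all of it (6.32). The RefSeq record of Tbcb runs over this midpoint, so whether the peak lay past the gene depended on the annotation.

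Sft2d1, which encodes a vesicle transport protein, had a member of 901 bp at chr17:8327413-8328313 with an enrichment of 5.36. It began 29 bp inside the gene, reached 871 bp past it and was covered to 80.6% in replicate 1 (enrichment 4.34) and 99.6% in replicate 2 (5.68). Plcg2, phospholipase C gamma 2 in immune receptor signalling, tied with it at 5.36 with a far longer peak of 4188 bp at chr8:117633504-117637691. That peak reached 2549 bp past the end and was covered to 61.5% in replicate 1 and 100% in replicate 2, with enrichments of 3.93 and 7.47. Both genes thus had a peak past the end in each replicate. The Sft2d1 midpoint lay in the same-strand processed transcript gene AC164431.1.

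Ciao2a, a protein of cytosolic iron-sulphur cluster assembly, followed with an enrichment of 5.12 and a peak of 1920 bp at chr9:66138853-66140772, covered to 31.0% in replicate 1 and 63.2% in replicate 2. At 3110040N11Rik the member of 3588 bp had an enrichment of 5.01 and was covered to 41.2% in replicate 1 and 99.8% in replicate 2. The gene body of 3110040N11Rik had 0% under replicate 1 peaks, so in that replicate the mark was called only past the annotated end; the RefSeq record of the gene covers the midpoint. Dck, deoxycytidine kinase, had a member of 1779 bp with an enrichment of 4.93, covered to 68.5% in replicate 1 and 95.8% in replicate 2.

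Bcl6, a transcriptional repressor active in immune cells, had a member of 1629 bp at chr16:23963940-23965568 with an enrichment of 4.79, covered to 76.4% in replicate 1 and 99.1% in replicate 2. Atp6v1a, the catalytic subunit of the vacuolar proton pump, had one of 3070 bp at chr16:44083608-44086677 with an enrichment of 4.75, covered to 86.3% and 95.1%. Both members lay largely under peaks in each replicate. Cd84, a receptor of the SLAM family, and Ifi208, an interferon-inducible DNA-binding family member, closed the first 10 at 4.70. Arhgap19 had the same enrichment of 4.70 and was placed after them by position only.

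**Figure D2:**
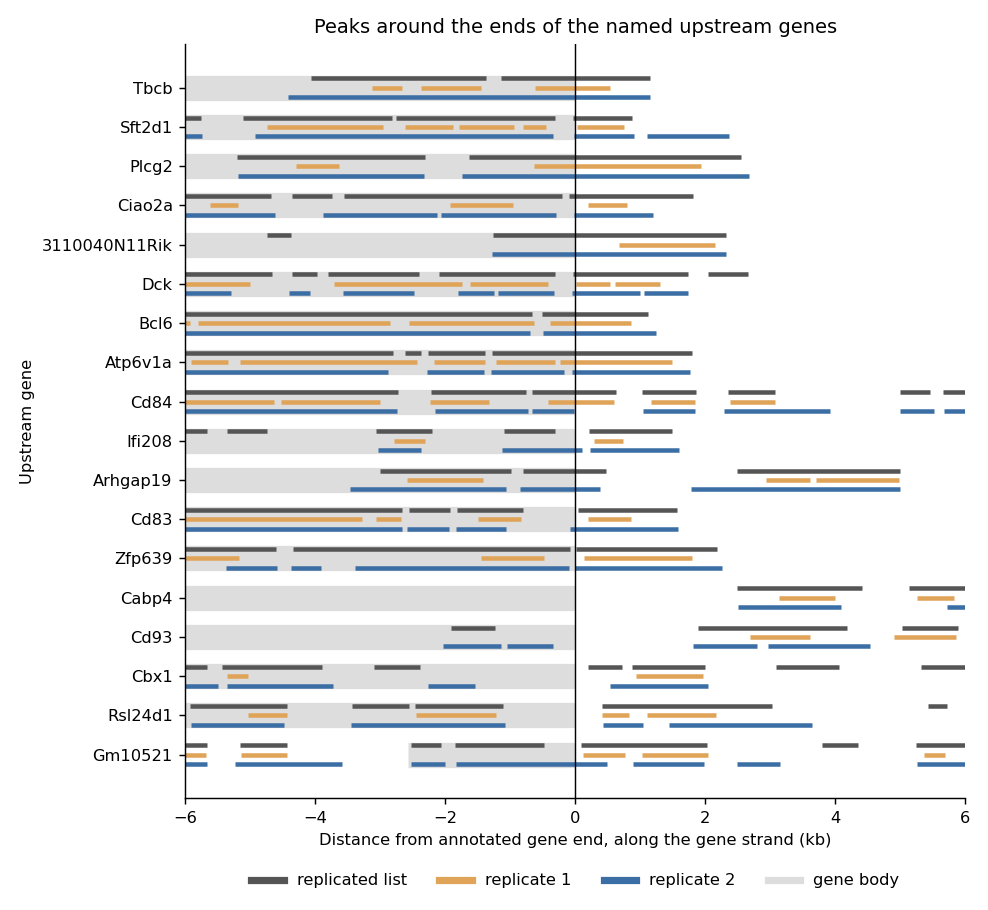
Peaks of the replicated list (dark), replicate 1 (orange) and replicate 2 (blue) around the annotated ends of 18 upstream genes, drawn to scale from 6 kb before to 6 kb after the end (vertical line) along the gene strand; grey bars are the gene bodies. The first 10 genes are the strongest members, the next 3 further strong peaks that begin past the end, and the last 5 genes with no replicated peak in the last 10% of the body. Replicate 1 peaks are mostly shorter than those of replicate 2, and at Tbcb they stop nearer the gene end.

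The longest members spanned the gene end over several kilobases. Ddost, a subunit of the oligosaccharyltransferase, had the longest at 5689 bp, from 2496 bp inside the gene to 3192 bp past it, with an enrichment of 3.88. The gap from Ddost to the facing gene Pink1 was only 780 bp, so the peak ran on into Pink1. Coding genes held 4909 bp of it. Tmem59 (5537 bp), Prdm4 (5092 bp), Pdhb, the beta subunit of pyruvate dehydrogenase (4672 bp), and Gid8 of the CTLH ubiquitin ligase complex (4647 bp) came next; the RefSeq record of Gid8 runs over that midpoint. The Pdhb and Prdm4 peaks also ran into a facing gene, Pxk after a gap of 878 bp and Pwp1 after 2869 bp. Coding genes held 3794 bp of the Pdhb peak and 2223 bp of the Prdm4 peak. Replicate 2 peaks covered between 54.4% (Prdm4) and 96.4% (Ddost) of the 5 longest peaks, and replicate 1 peaks between 26.3% (Pdhb) and 56.2% (Prdm4). At Prdm4 the replicates covered nearly equal shares of the peak, and at the other 4 replicate 2 covered more.

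The strongest separate members had peaks in each replicate. The member past Cd84 lay at chr1:171893074-171893797, began 2356 bp past the gene and was covered to 96.8% in replicate 1 (enrichment 3.80) and 100% in replicate 2 (6.25). Repeats made up 82.3% of it, against a median of 19.4% for separate members. How the authors treated reads that map to several places is not given in the sources used here. The member past Arhgap19, a GTPase-activating protein, began 2492 bp past the gene at chr19:41761591-41764096 and was covered to 78.4% and 99.9%. Zfp639, a zinc finger gene, had one that began 4 bp past its end and was covered to 76.3% and 100%. The members past Cd83, a surface protein of activated antigen-presenting cells, and Ifi208 began 46 bp and 214 bp past the gene and were covered to 43.7% and 34.6% in replicate 1 and to 100% and 99.0% in replicate 2. All 5 therefore met peaks in both replicates.

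Ranked by the near edge of the peak, which with a limit on the midpoint favours short peaks, the farthest members were short. The near edge lay 4662 bp past Kcnk6, a potassium channel gene, 4414 bp past Parg, which encodes poly(ADP-ribose) glycohydrolase, 4402 bp past Nucb2, 4318 bp past Gid8 and 4317 bp past Ptpa, an activator of protein phosphatase. The peaks past Kcnk6, Parg, Gid8 and Ptpa were 356 to 440 bp long and met no peak of either replicate. The peak past Nucb2 was 1086 bp long and had 97.4% of its length under replicate 2 peaks and 0% under replicate 1 peaks. The midpoints past Parg and Nucb2 lay in same-strand intergenic noncoding RNA genes. Ranked by midpoint, the members from 4 to 5 kb had a median length of 850 bp.

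The most members past 1 gene were 4. Ccdc12, a coiled-coil gene, Clec4a3, a C-type lectin receptor of myeloid cells, and Rwdd1 had 4 members each. Past Clec4a3 the midpoints lay at 7, 1734, 3074 and 4850 bp with enrichments of 3.55, 3.63, 2.60 and 4.21, so the farthest peak was the strongest. Repeats made up 89.7% of that farthest peak, against a median of 19.4% for separate members. All 4 had over 60% of their length under replicate 2 peaks, and the peaks at 3074 and 4850 bp also met replicate 1 (52.3% and 39.4% covered). Past Ccdc12 the enrichments were 3.14, 3.14, 3.71 and 2.72 at 426, 1552, 2854 and 4522 bp. Past Rwdd1 they were 3.38, 2.89, 2.56 and 2.72 at 680, 2056, 3827 and 4710 bp; the first met replicate 2 peaks over 82.6% of its length and the other 3, which lay in the same-strand noncoding gene A830082N09Rik, met no peak of either replicate.

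The genes upstream of the members were mostly covered up to their ends. At least 50% of the last 10% of the gene body was under replicated peaks in 789 of the 1208 upstream genes (65.3%, interval 62.6% to 68.0%), where 18.2% of all coding genes reached this. The median coverage of the last 10% was 68.3% in the replicated list, 6.00% in replicate 1 and 59.8% in replicate 2. The last 10% reached 50% in 174 upstream genes (14.4%) in replicate 1, against 4.53% of all coding genes, and in 704 (58.3%) in replicate 2, against 17.1%. Coverage was higher in replicate 2 than in replicate 1 for 985 upstream genes and lower for 70. Members that ran over the end cover part of the last 10% themselves; behind the 853 separate members, whose own bases lie outside it, 550 (64.5%) had an upstream gene with at least 50% of the last 10% covered.

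**Figure D3:**
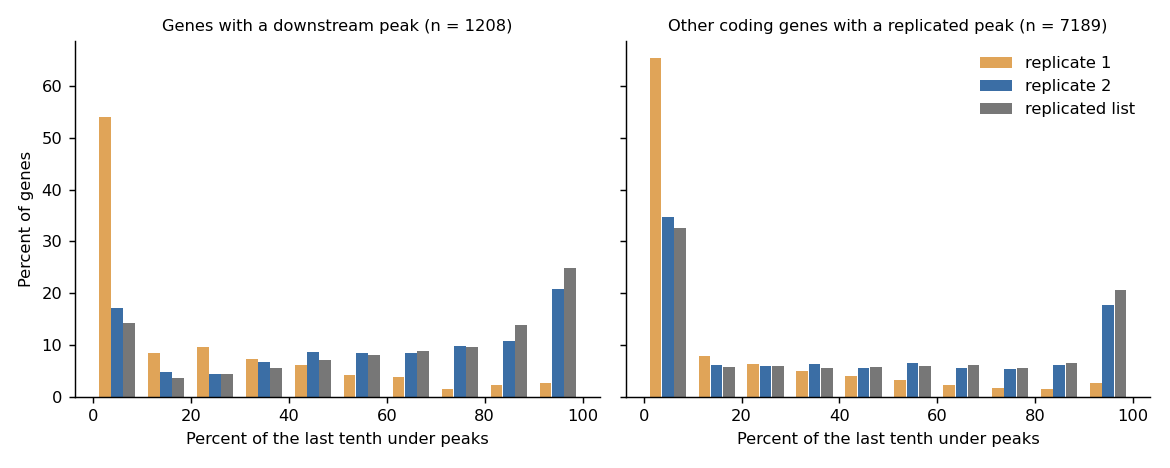
Percent of genes (vertical axis) by percent of the last 10% of the gene body under peaks (horizontal axis, steps of 10 percentage points) in replicate 1 (orange), replicate 2 (blue) and the replicated list (grey). Of the 1208 genes with a downstream peak (left) 24.9% fell in the top step of the replicated list and 20.8% in that of replicate 2, against 2.73% in replicate 1, where 54.1% fell in the lowest step; the right panel shows 7189 other coding genes with a replicated peak.

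Other genes that carried the mark had less of the last 10% covered in the replicated list. The 7189 coding genes with a replicated peak in the body and no member had a median of 40.4% of the last 10% covered, and 44.6% of them reached 50%. Read the other way, a downstream peak was found past 789 of 3998 genes (19.7%) with at least 50% of the last 10% covered, past 305 of 2337 (13.1%) with less, and past 114 of 15616 (0.730%) with none. Gene length differed little: the median was 24.7 kb for the upstream genes and 25.9 kb for the others with a peak. Both the members and the coverage come from the same list, so these shares are not independent of each other.

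Along genes of at least 5 kb with a member (1087 genes), mean coverage in the replicated list rose from 2.36% in the first 10% of the body to 60.8% in the last. It was 72.5% over the first 500 bp past the end, 61.5% over the next 500 bp and 9.76% from 4.5 to 5 kb, where the choice of the members raises the replicated values. In replicate 2 the last 10% and the first 500 bp past the end were nearly equal at 55.5% and 54.5%. In replicate 1 they were 20.7% and 17.8%. In 2946 genes chosen for at least 50% of the last 10% covered and no member, the same 2 steps were 82.1% and 44.8% in the replicated list, 31.1% and 14.7% in replicate 1 and 73.6% and 44.0% in replicate 2; both sets were chosen on coverage around the end, which shapes the step there, so nothing is read from their difference.

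**Figure D4:**
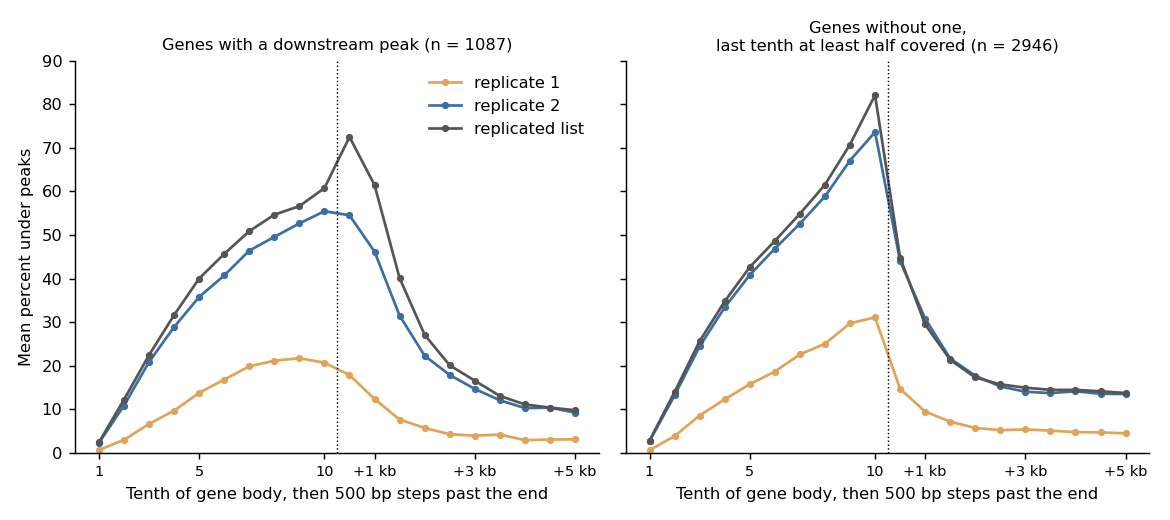
Mean percent under peaks (vertical axis) in each 10% step of the gene body and in 500 bp steps over 5 kb past the annotated end (dotted line), for the replicated list (grey), replicate 1 (orange) and replicate 2 (blue). The first step past the end in replicate 2 is 54.5% in the 1087 genes with a member (left) and 44.0% in the 2946 genes chosen for a covered last 10% and no member (right), a contrast that the choice of the genes shapes.

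How far the peaks covering a gene end ran past it was measured for all coding genes with 5 kb free of other coding genes downstream. In the replicated list 1192 such ends were under a peak, which ran a median of 545.5 bp past the end, and 268 (22.5%) ran past 1 kb. In replicate 1 it was 330 ends with a median of 360.5 bp, and in replicate 2 it was 1122 with a median of 551 bp. The share that ran past 1 kb was 6.97% in replicate 1 and 20.9% in replicate 2.

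A smaller set of 130 members (9.15%) stood behind 114 genes with none of the last 10% under replicated peaks. All were separate peaks, since a peak that runs over the end covers part of the gene. Their median length was 613 bp, their median enrichment 2.81 and their median distance 1085 bp, against 705 bp, 2.89 and 1112 bp for all 853 separate members. At least 50% of the peak was covered in replicate 1 for 16 (12.3%) and in replicate 2 for 51 (39.2%). For 61 of the 130 the upstream gene had no replicated peak anywhere in its body, and for 36 the end of another coding gene lay in reach, in 17 of them a gene with at least 50% of the last 10% covered. The midpoint lay in a coding gene of the RefSeq annotation for 18 and in a noncoding gene for 16.

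The 5 strongest of these show different surroundings. Cabp4, a calcium-binding protein of photoreceptor synapses, had 0% of its body covered in any list, and the member 3445 bp past it (chr19:4131014-4132941, enrichment 4.13) lay in Tmem134, a coding gene in RefSeq that GENCODE lists as a processed transcript. It was covered to 44.2% in replicate 1 and 82.7% in replicate 2. Cd93, a lectin-like receptor of myeloid cells, and Gm10521 had 0% of the last 10% covered in the replicated list and in replicate 1, but 49.9% and 100% in replicate 2. The members were covered to 40.4% and 92.3% past Cd93 and to 84.5% and 76.8% past Gm10521, in replicates 1 and 2. Gm10521 is the next coding gene after Cd84, another of the genes described above. Past Cbx1, a heterochromatin protein, and Rsl24d1, a ribosome biogenesis factor, the members had enrichments of 3.88 and 3.80 and were covered to 89.9% and 56.9% in replicate 1 and to 100% and 84.1% in replicate 2.

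Most members lay in no annotated gene. The midpoint was outside every noncoding gene and pseudogene for 1329 members (93.6%); it lay in a long noncoding RNA gene for 80 and in a pseudogene for 7. Antisense genes held 30 midpoints and intergenic noncoding RNA genes 29. The RefSeq annotation extended a coding gene over the midpoint of 148 members (10.4%), for 110 of them (7.75%) a gene of the same symbol as the upstream gene, and a curated transcript did so for 73 (5.14%). Peaks inside RefSeq coding genes had a median enrichment of 2.92 and those outside 2.97.

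The next coding gene along was on the same strand for 718 members (50.6%) and on the opposite strand, with its own end facing the peak, for 702 (49.4%). The gap between the upstream gene and the next was a median of 21701 bp on the same strand and 7759 bp on the opposite one. The midpoint lay within 1 kb of the next gene for 14 members with a same-strand neighbour and for 67 with an opposite one. At least 50% of the neighbour's own last 10% was covered for 174 of the same-strand neighbours (24.2%) and 187 of the opposite ones (26.6%). Of all coding genes 18.2% reached this. The strand split and the gaps are not given here for all coding genes, so they are not read as traits of the members. More than 1 coding gene end lay in reach of 326 members (23.0%), so their assignment to an upstream gene rests on the nearest end.

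Of 23 genes of 3′ end processing 3 had a peak past the end (13.0%) and of 21 termination genes 5 (23.8%). Of all 21951 coding genes 5.5% did, but 13610 of them had no replicated peak in the body. Of the coding genes with at least 50% of the last 10% covered, 19.7% had a member, which lies between the shares of these lists. Papola, the main nuclear poly(A) polymerase, had a member with an enrichment of 3.47 at 1336 bp, covered to 0% in replicate 1 and 97.7% in replicate 2. Papolg, a related polymerase, had one of 3.47 at 419 bp, covered to 49.2% and 70.0%. Wdr82, which binds the tail of RNA polymerase II, had one of 2.89 at 323 bp that met no peak of either replicate. These are the strongest members of each gene; Papola had another of 3.14 at 2582 bp, met by replicate 2 only, and Papolg another of 3.30 at 3100 bp, covered to 12.2% and 12.5%. The RefSeq records of Papolg and Wdr82 run over these midpoints.

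Among the termination genes the 5 with a member were Cdk12, a kinase of the polymerase tail, Scaf8, which binds that tail, Cdkn2aip, an Xrn2-binding protein, Xrn2 itself and the helicase Dhx9, the last pair named to complete the count. The strongest member of each had an enrichment of 3.14, 2.97, 2.56, 2.56 and 2.24, and the midpoints lay at 522, 2751, 186, 262 and 877 bp. None of these 5 peaks met a replicate 1 peak. Scaf8 had another member of 2.48 at 1349 bp that met neither replicate, and both Scaf8 midpoints lay in a same-strand intergenic noncoding RNA gene; the RefSeq record of Cdk12 runs over its midpoint. In replicate 2 the Cdk12 and Scaf8 peaks were covered to 99.1% and 96.8%, the Dhx9 peak to 44.9% and the other two to 0%. The last 10% of Cdk12 was covered to 71.7% in the replicated list, 5.42% in replicate 1 and 58.2% in replicate 2, and that of Cdkn2aip to 0% in all 3. In the replicated list 13 of the 23 processing genes and 14 of the 21 termination genes had at least 50% of the last 10% covered. Of all coding genes 18.2% did. A member was found past 2 of these 13 processing genes and 4 of these 14 termination genes, against 19.7% of all coding genes so covered.

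Of 26 genes listed here as writers, readers or erasers of H3K36 methylation 5 had a member (19.2%), and what each listed gene does was not checked. Setd2, the writer of the mark itself, had a member of 1876 bp at chr9:110618738-110620613 with an enrichment of 2.97 and the midpoint at 1043 bp; it met no replicate 1 peak and was covered to 93.7% in replicate 2. The last 10% of Setd2 was covered to 72.6% in the replicated list, 27.7% in replicate 1 and 62.3% in replicate 2. The end of the facing gene Nradd lay 1459 bp from the midpoint, and its last 10% was covered to 100% in the replicated list. The peak is placed with Setd2 by the nearest end only. Morf4l1, a chromodomain reader of the mark, had the strongest of the 5 at 4.13, covered to 46.7% in replicate 1 and 83.5% in replicate 2. The eraser Kdm4c had one of 3.14, met by replicate 2 only (100% covered). The other two, named to complete the count, were Setd3 (2.81, replicate 2 only) and Brd1 (2.89, neither replicate).

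Lists of genes active in macrophages had members in differing shares. Of 42 lysosome and phagosome genes 9 had one (21.4%), against 5.5% of all coding genes. At least 50% of the last 10% was covered in 31 of the 42. All 9 genes with a member were among these 31, and of all coding genes so covered 19.7% had a member. Besides Atp6v1a the 9 were led by Atp6v1c1, another proton pump subunit, with an enrichment of 3.80. This peak was covered to 64.7% in replicate 1 and 82.0% in replicate 2. Vps18, of the complexes that tether membranes at the lysosome, had one of 3.33, covered to 0% in replicate 1 and 75.6% in replicate 2. Of 36 interferon-stimulated genes 4 had a member (11.1%). At least 50% of the last 10% was covered in 27 (75.0%), against 18.2% of all coding genes. A member was found past 4 of these 27, against 19.7% of all coding genes so covered. Ifit3, an inhibitor of viral translation, had a member of 3.12 with the last 10% covered to 100% in both replicates. The RNA sensor Ifih1 had one of 3.17 that met replicate 2 only, and Parp9, an ADP-ribosyltransferase family member, one of 3.30 that met neither replicate. The RefSeq record of Ifit3 runs over its midpoint, and the Parp9 midpoint lay in an antisense gene.

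Of 39 macrophage identity genes 2 had a member (5.13%), close to the 5.5% of all coding genes. At least 50% of the last 10% was covered in 21 of the 39. Of these 21 genes 1 had a member, against 19.7% of all coding genes so covered. Spi1, which encodes the lineage factor PU.1, had a member of 827 bp at chr2:91115652-91116478 with an enrichment of 3.55 and the midpoint at 309 bp, covered to 0% in replicate 1 and 100% in replicate 2. The last 10% of Spi1 was covered to 87.6% in the replicated list, 46.9% in replicate 1 and 88.3% in replicate 2. Cebpb, a factor of myeloid cells, had 0% of its body covered in any list, yet a member of 1425 bp lay 2014 bp past it with an enrichment of 3.05, met by replicate 2 only (100% covered). That midpoint lay in a same-strand intergenic noncoding RNA gene, A530013C23Rik, and the previous replicated peak was 37063 bp away.

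Of 38 splicing genes 9 had a member (23.7%), led by Srsf3, Srsf5 and Srsf6, which encode SR proteins that guide splice site choice. Their members had enrichments of 3.55, 3.38 and 3.22, and were covered to 34.5%, 0% and 84.3% in replicate 1 and to 96.9%, 100% and 83.3% in replicate 2. The last 10% of Srsf3 and Srsf6 was fully covered in the replicated list and that of Srsf5 to 0%. The end of Slc10a1 faced the Srsf5 peak at 2083 bp from its midpoint, and the last 10% of Slc10a1 was covered to 100%. Of 35 oxidative phosphorylation genes 7 had a member (20.0%). The strongest were past Cox5a, a subunit of cytochrome c oxidase (3.63), and Ndufb5 and Ndufs1, subunits of complex I (3.30 and 3.14). All 3 met replicate 2 only, with 64.7%, 92.9% and 95.7% covered, and the Cox5a and Ndufs1 midpoints lay in noncoding genes on the opposite strand.

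Ribosomal protein genes had the largest share of the 10 gene groups, with 29 of 79 (36.7%), against 5.5% of all coding genes. At least 50% of the last 10% was covered in 47 (59.5%), against 18.2% of all coding genes. A member was found past 23 of these 47, against 19.7% of all coding genes so covered. Among the strongest members were those past Rps15 (4.37) and Rpl6 (4.21). Replicate 1 peaks covered 58.2% and 40.0% of them and replicate 2 peaks 98.8% and 80.7%. These genes are short, with a median length of 3.29 kb against 17.4 kb for all coding genes, so their last 10% is a short stretch. Many have near-identical pseudogene copies, and how the authors treated reads that map to several places is not given in the sources used here. Of 365 Zfp-named genes, which encode zinc finger proteins, 30 had a member (8.22%). In 89 of them (24.4%) at least 50% of the last 10% was covered, against 18.2% of all coding genes. A member was found past 24 of these 89, against 19.7% of all coding genes so covered. The strongest members after that of Zfp639 were past Zfp839 (3.71) and Zfp809 (3.47). The Zfp839 peak met replicate 2 over 45.6% of its length, and the Zfp809 peak, whose midpoint lay inside Zfp809 and Zfp599 in RefSeq, met neither replicate.

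**Figure D5:**
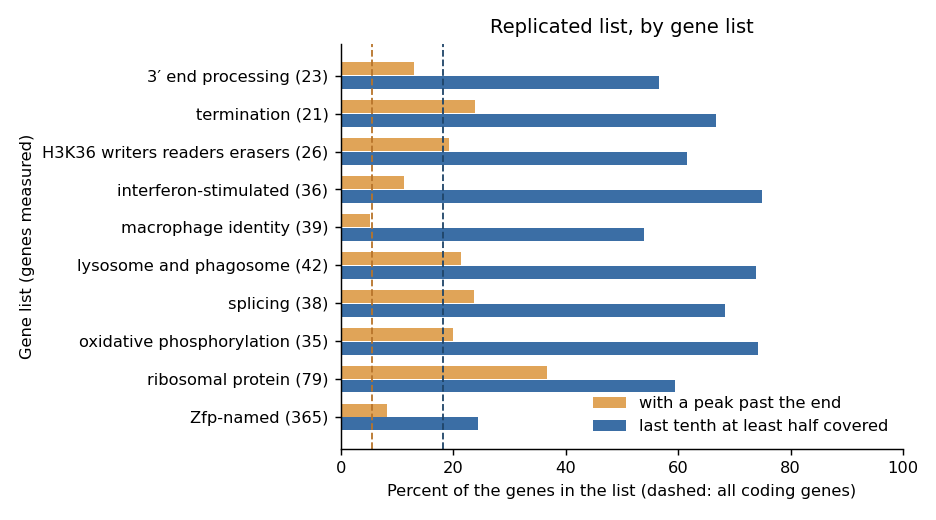
Percent of the genes in each of 10 lists (horizontal axis; number of genes measured in brackets) with a replicated peak past the end (orange) and with at least 50% of the last 10% under replicated peaks (blue); dashed lines mark all coding genes at 5.5% and 18.2%. Ribosomal protein genes have the longest orange bar at 36.7%, and interferon-stimulated genes the longest blue bar at 75.0% with an orange bar of 11.1%. Among all coding genes with at least 50% of the last 10% covered, 19.7% had a peak past the end.

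The limits of the rule cut through a thin tail of peaks. The members just inside 5 kb had midpoints 4953 bp past Stx12 and 4967 bp past Sec13, with enrichments of 3.33 and 3.55, and the peaks just outside lay 5079 bp past Rftn1 and 5100 bp past Baz2b, with 3.17 and 2.27. From 5 to 10 kb there were 67 further peaks. The members just inside the length limit were those of Tmem59 and Ddost, and the peaks just outside it lay past Asah1 (6098 bp long) and Serinc3 (6448 bp), with enrichments of 4.04 and 4.62. In all, 4 peaks past gene ends were left out for their length.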

How the data were processed

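H3K36me3 ChIP-seq peaks of 2 replicates of unstimulated macrophages were used as the authors deposited them in 4 lists: per the file notes and labels, 1 list per replicate, filtered on random splits of the reads (pseudoreplicates), another pooling both replicates, and a replicated list, all on mm10 and derived with a control that was not analysed here. Which aligner and peak caller they used is not given in the sources used here. The deposited score of a peak is 10 times its −log10 p rounded down, the deposited enrichment is a ratio over the background of the authors' caller, and −log10 p and −log10 q are values the authors deposited; all served only to rank, filter or describe the peaks of 1 list. The lists hold no read counts, so depth is unknown, and the number and length of peaks may move with it.

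Coding genes were the 21951 protein-coding records of GENCODE M21, from annotated start to annotated end. Distance runs from the nearest coding gene end to the peak midpoint; coverage is the percent of bases under any peak of a list, and a peak met a replicate when at least 1 bp overlapped. RefSeq GRCm38.p6 gave the sequence, the repeats (soft-masked bases) and a further annotation. Lists of genes, members and rules were chosen with earlier results of these data known. Named are the 10 members of highest enrichment, the 5 longest, the 5 strongest and 5 farthest that touch no coding gene, the 5 strongest with an uncovered last 10%, the 3 genes with the most members, up to 3 per gene list and the peaks at the limits. An item that this rule takes is not reported here. Alternatives were the pooled list, each replicate's list alone, other limits of distance, length, −log10 q and enrichment, other gene ends and, added after seeing the data, RefSeq genes and members with 1 gene end in reach. The scripts used matplotlib 3.10.9, pysam 0.24.0, scipy 1.17.1, pandas 2.3.3, numpy 2.4.6 and Python 3.11.15, and the steps were tested on simulated data.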

Additional observations from a re-analysis of the deposited data

How the results depend on the processing

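Of 108 alternative values over 8 results, 76 stayed within limits and 32 did not. The limits were a set ratio of the main count for the number of members and the exact 95% interval for the shares covered in each replicate. For the rest they were the main value plus or minus the standard deviation of the 2 replicates' own values. These limits were wide for the last 10% of the upstream genes. They were 42.9% to 93.7% for its median coverage and 43.3% to 87.4% for the share of genes with at least 50% covered. For the share reaching into the gene they were 39.3% to 40.6%, which left out both replicates' own values. The count within limits is therefore no measure of stability. Building the set from 1 replicate's list alone gave 547 to 1510 members, a median distance of 479 to 596 bp, 38.2% to 39.1% reaching into the upstream gene, a median of 25.2% to 61.1% of the last 10% covered and 27.7% to 58.9% of upstream genes with at least 50% of it covered; the low end was always replicate 1, that is, without replicate 2. Of members from the list without replicate 1, 13.2% had at least 50% under replicate 1 peaks, and of members from the list without replicate 2, 78.8% had it under replicate 2 peaks. Requiring the whole peak outside coding genes left 851 members at a median distance of 1111 bp, with 0% reaching into the gene by construction, 91.9% outside noncoding genes and 11.9% and 50.4% covered in replicates 1 and 2. A −log10 q of at least 5 left 883 members (47.6% reaching; 22.3% and 79.0% covered), and an enrichment of at least 3 left 636 (50.8% reaching; 26.1% and 85.4% covered). The pooled list gave 39.0% reaching and 13.1% and 69.1% covered. A limit of 2 kb gave a median distance of 506.5 bp and 46.9% reaching, and a limit of 10 kb 38.1% reaching. RefSeq coding genes gave 38.9% reaching and members with 1 gene end in reach 36.7%, both chosen after seeing the data. Counting any overlap raised the covered shares to 26.5% and 63.3%. Apart from the changes fixed by construction, the cause was not tested. No paired analysis was possible because both samples belong to 1 group and no result comes from a test. Depth is unknown, so absence of a peak in replicate 1 is no absence of the mark.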
